A study of Homo sapiens with 4 samples.

Results

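The genes described here encode the methyltransferases that write N6-methyladenosine (m6A) into RNA and the accessory subunits of their main complex, and the question was whether their own mRNAs are listed as m6A modified in C643 cells. The members were fixed by name: METTL3, METTL14, WTAP, VIRMA, ZC3H13, CBLL1, RBM15, RBM15B, METTL16 and ZCCHC4. A site belonged to a gene when it lay in an exon or intron of that gene on the same strand. Of the 18789 sites in the list, 14 lay in these 10 genes, and all 14 were in RBM15B. No site was listed in the other 9 genes.

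m6A in mRNA is deposited in the nucleus by a complex whose catalytic subunit METTL3 works as a heterodimer with METTL14. WTAP anchors this pair to regulatory subunits: VIRMA as a scaffold, ZC3H13 as a bridging protein, the E3 ligase-like protein CBLL1 (HAKAI), and the RNA-binding paralogs RBM15 and RBM15B, which recruit the complex to RNA. METTL16 and ZCCHC4 are separate m6A methyltransferases that modify U6 snRNA and the MAT2A mRNA, and 28S rRNA, respectively. The complex prefers the DRACH motif, in which D is A, G or T, R is A or G and H is A, C or T.

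The list comes from miCLIP2: fragments of poly(A)+ RNA are bound by an antibody against m6A, fixed to it with ultraviolet light and reverse transcribed, and the position at which the cDNA stops marks the modified nucleotide. C643 is a human cell line of anaplastic thyroid cancer origin, and the cells used were wild type and received no treatment. There was 1 group with 3 biological replicates and 4 libraries, since replicate 1 had 2 technical libraries. A single list of positions covers all of them, each with a prediction score from the classifier m6Aboost, so no spread between replicates can be given, the depth behind a site is unknown, and expression was not analysed here. A gene with no listed site can therefore not be told apart from a gene with too few reads, and the identity of the cells cannot be checked from this list. Across the whole list the median score was 0.754 (quartiles 0.640 and 0.847) and 88.7% of the sites were at DRACH. Of the 17540 sites on transcripts of coding genes, the coding sequence (CDS) held 42.1% and the 3' UTR 55.4%.

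A single listed gene among 10 is a share of 10% (Wilson 95% interval 1.79 to 40.4). Of all 20046 protein-coding genes in the annotation, 4040 held at least 1 listed site, which is 20.2%. This background lies within the interval. With 10 genes fixed by name the interval is wide and not a test, and no difference was tested. The 14 sites of RBM15B compare with a median of 3 in coding genes that held a site, of which 94.2% had fewer sites than RBM15B.

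RBM15B lies on the plus strand of chromosome 3 (GRCh38, 51391285 to 51397908) and is a gene of 1 exon, so that every site in it is exonic and none is near a splice junction. Its transcript of 6624 nt has a 5' UTR of 115 nt, a CDS of 2673 nt and a 3' UTR of 3836 nt. All 14 sites were in the CDS. No other annotated gene overlapped them on either strand. They are shown because they are all the sites that the list holds in a writer mRNA. Each line gives the 21 nt around the listed A as read on the RNA strand (written as DNA, GRCh38, plus strand). The pentamer centred on that A is in capitals.
RBM15B site 1, chr3:51392280-51392300: ccgccgtgGGACTgtcccggg
RBM15B site 2, chr3:51392423-51392443: ggtaacctGGACCacagcgta
RBM15B site 3, chr3:51392667-51392687: gtggcctgGGACCtaacacgt
RBM15B site 4, chr3:51392725-51392745: gagcattcGGACCattgatca
RBM15B site 5, chr3:51392829-51392849: ccttgggtGGACCagaccgca
RBM15B site 6, chr3:51393238-51393258: acggagtaGGACCaagggcag
RBM15B site 7, chr3:51393437-51393457: aaggcaagAGACAgcgagcgc
RBM15B site 8, chr3:51393617-51393637: ctagagggGGACCagggggtg
RBM15B site 9, chr3:51393647-51393667: ctcctcaaAGACCacacttct
RBM15B site 10, chr3:51393857-51393877: cttctcagGAACCtggtctcc
RBM15B site 11, chr3:51393932-51393952: aagggcagAGACGgcacaggc
RBM15B site 12, chr3:51394003-51394023: agcactaaGGACAttgggcaa
RBM15B site 13, chr3:51394026-51394046: tagaagaaGAACAcatggtga
RBM15B site 14, chr3:51394052-51394072: atcgtcagAGACActgcctag

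All 14 pentamers had a C after the central A, and 13 were DRACH. The exception was site 11 at AGACG, where the G in the last place breaks the motif. AGACG occurred at 108 sites of the whole list, where the median score was 0.674, and the site in RBM15B was below this with 0.561. GGACC was the most frequent pentamer in RBM15B with 6 of the 14 sites (sites 2, 3, 4, 5, 6 and 8), whereas it accounted for 10.2% of the whole list. GGACT, the most frequent pentamer of the list with 21.7% of the sites, was found at site 1 only. The remaining sites were at AGACA (sites 7 and 14), AGACC (site 9), GAACC (site 10), GGACA (site 12) and GAACA (site 13).

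This composition was set beside the motifs that the CDS of RBM15B offers. It holds 13 GGACC motifs and 4 GGACT motifs, of which 6 and 1 were listed. Among the CDS of all coding transcripts with a listed exonic site, 6.84% of GGACC and 22.9% of GGACT motifs were listed. RBM15B also had 2 of its 4 AGACA motifs and its only GAACA motif listed, pentamers of which 2.49% and 3.79% were listed in those transcripts. None of its 3 AGACT motifs was listed, and the share over those transcripts was 13.96%. With so few motifs of each kind, these are counts within 1 gene, and no difference was tested. The shares over those transcripts also pool motifs near and far from exon junctions, and RBM15B has no junction. Of all their CDS motifs 6.23% were listed, compared with 20.6% in transcripts with 1 exon. Shares by pentamer were not computed for transcripts with 1 exon.

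The prediction scores of the 14 sites ranged from 0.536 to 0.904 with a median of 0.653, against 0.754 in the whole list. Only 3 of the 14 reached the median of the list. The highest score was that of site 12 (0.904, position 51394013, GGACA), which was at or above 90.0% of all listed scores. It was followed by site 4 (0.798, position 51392735, GGACC) and site 13 (0.785, position 51394036, GAACA). The lowest score was that of site 9 (0.536, position 51393657, AGACC), and sites 5 (0.552), 11 (0.561), 7 (0.563) and 8 (0.579) were also below 0.6. The scores of sites 1 (0.726), 6 (0.721), 14 (0.716), 3 (0.670), 2 (0.636) and 10 (0.624) lay between these. The sequence and the transcript region were inputs of the classifier, so a score is not a measure of how much of the RNA is methylated.

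**Figure D1:**
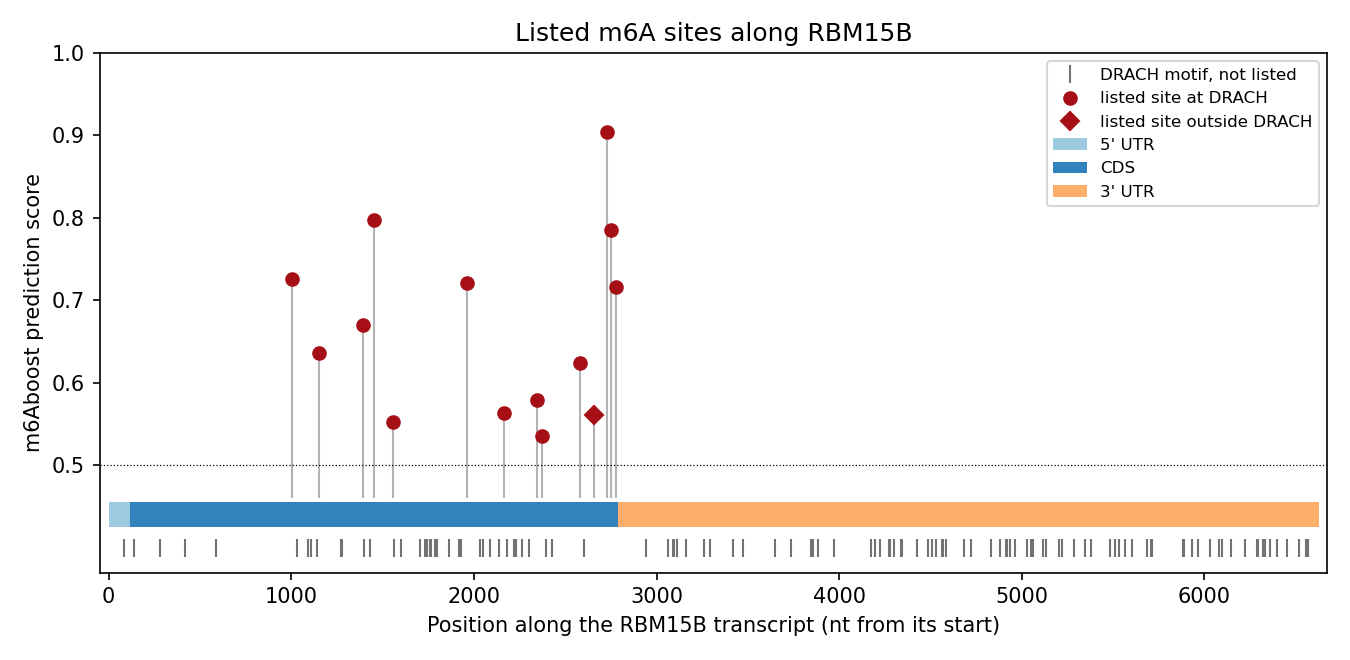
Listed sites along the RBM15B transcript. The x axis is the position in nt from the transcript start and the y axis the m6Aboost prediction score; circles are sites at DRACH, the diamond is the site at AGACG, grey ticks are DRACH motifs that are not listed, and the bar marks the 5' UTR, CDS and 3' UTR. The 14 sites lie in the CDS between positions 1006 and 2778, the highest score of 0.904 lies 57 nt before the stop codon, and the 77 motifs of the 3' UTR carry no site.

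The sites were spread unevenly along the reading frame. The first 890 nt of the CDS had no site, and only 4 DRACH motifs lie in this stretch. Divided into 3 parts of equal length, the CDS had 1 site in the first part, 4 in the middle part and 9 in the last part, where 5, 23 and 22 DRACH motifs were available. The GC content of these parts was 75.6%, 60.8% and 58.9%. Neighbouring sites were 23 to 409 nt apart with a median of 104 nt, and 3 of the 13 neighbouring pairs were within 50 nt: sites 8 and 9 (30 nt), 12 and 13 (23 nt) and 13 and 14 (26 nt). Of the listed adenosines, 3 were at the first base of a codon, 7 at the second base and 4 at the last base.

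The site nearest the stop codon was the last one on the transcript. Sites 12, 13 and 14 lay 57, 34 and 8 nt upstream of the T that opens the stop codon, with scores of 0.904, 0.785 and 0.716. The last 3 letters of the window of site 14 are the stop codon itself. A distance of at most 200 nt from the stop codon was found for 4 of the 14 sites (28.6%, Wilson interval 11.7 to 54.6), and site 10, at 203 nt, was just outside. Over all sites on coding transcripts this share was 33.3%, which lies within the interval, and no difference was tested. Of the 4 coding DRACH motifs within 200 nt of the stop codon, 3 were listed.

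Downstream of the stop codon the list was empty. The 3' UTR of RBM15B holds 77 DRACH motifs, 9 of them starting with GG, and 0 were listed. Over the 3' UTRs of all coding transcripts with a listed exonic site, 9.07% of the motifs were listed, and 9.57% in those with 1 exon. In the CDS of RBM15B 13 of 50 DRACH motifs were listed (26%, Wilson interval 15.9 to 39.6). The corresponding background, again over coding transcripts with a listed exonic site, was 6.23% for all CDS motifs. It was 17.5% for CDS motifs more than 100 nt from an exon junction in spliced transcripts. In transcripts with 1 exon it was 20.6%. The last 2 of these backgrounds lie within the interval and the first lies below it. Motifs of 1 gene are not independent, so the interval is not a test, and no difference was tested. For the whole transcript, 13 of 128 motifs (10.2%) were listed, against 7.31% over all such transcripts.

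The contrast between the regions was set beside other genes with many sites and many 3' UTR motifs, by minimums chosen after the values of RBM15B had been seen. At least 10 exonic sites were found in 457 coding genes, and 35 of these had at least as many DRACH motifs in the 3' UTR as RBM15B, with up to 228 motifs and up to 45 sites. RBM15B was the only gene among the 35 without a 3' UTR site. The other 34 had between 1 and 31 sites there, with a median of 9.5. The fewest were in AP5B1, which had 14 CDS sites and 1 site in the 3' UTR, and PLEKHG3, MGAT1 and CHST12 also had 1 site there, with 12, 11 and 9 sites in the CDS. Since RBM15B set the limits, this count is a description. Without the limit on motifs, 39 of the 457 genes had no site in the 3' UTR.

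**Figure D2:**
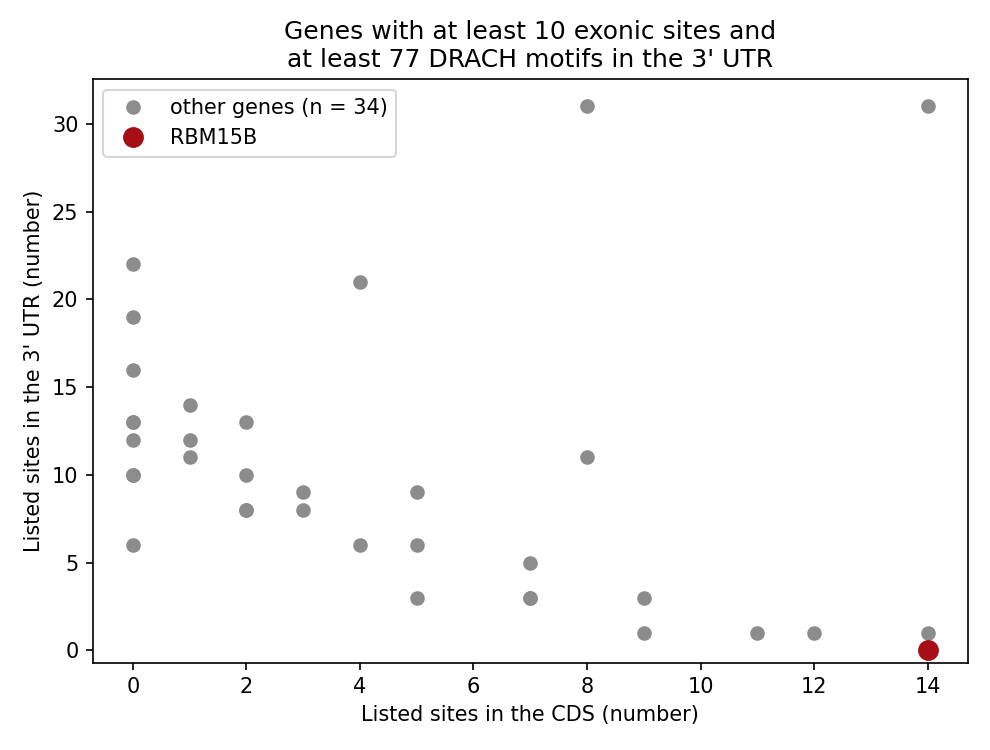
Listed sites in the CDS (x axis, number) and in the 3' UTR (y axis, number) of the 35 coding genes with at least 10 exonic sites and at least 77 DRACH motifs in the 3' UTR. Each point is a gene (some coincide), and RBM15B, in red, has 14 CDS sites and 0 in the 3' UTR, while the other 34 genes have 1 to 31 there.

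The GC content changed at the same place. It was 65.1% in the CDS of RBM15B and 48.6% in its 3' UTR. In windows reaching 50 nt to either side of the motifs, the median was 60.4% for CDS motifs and 49.5% for 3' UTR motifs, and the 14 sites had windows between 48.5% and 74.3%. The first 3' UTR motif lies 155 nt after the start of the stop codon, and the 7 motifs within 500 nt had windows between 32.7% and 48.5%. Farther downstream GC-rich stretches recur: 37 of the 77 motifs had a window of at least 50%. In 3' UTRs of all coding transcripts with a site, 1.05% of motifs were listed with a window below 40% GC, 5.39% between 45 and 50%, 9.17% between 50 and 55%, 14.5% between 55 and 60% and 20.3% at 60% and above. In the CDS of these transcripts the share was lower in each of these classes, with 0.661% below 40% and 2.69% between 45 and 50%. It was 3.79% between 50 and 55%, 5.46% between 55 and 60% and 9.92% at 60% and above. These CDS shares pool motifs near and far from exon junctions, and RBM15B has no junction. Over all GC classes, single-exon transcripts with a site had 20.6% of CDS motifs and 9.57% of 3' UTR motifs listed. Shares by GC class were not computed for single-exon transcripts. RBM15B had 10 motifs with windows of 55.4% to 60.4% in its 3' UTR, and 0 of these were listed. The part of GC content in the lack of 3' UTR sites was not tested, and neither was the length of the 3' UTR that C643 cells use, since read coverage was not analysed here.

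Neither METTL3 nor its partner METTL14 had a listed site. METTL3 (chromosome 14, 21498133 to 21511342, minus strand) has a transcript of 1980 nt in 11 exons with 39 DRACH motifs, 36 of them in the CDS and 2 in its 3' UTR of 120 nt. Only 10 of the 39 were more than 100 nt from an exon junction. The GGACT motifs of METTL3 are shown because this pentamer was the most frequent in the list, and none of the 4 was listed. They are printed as above, from the minus strand of GRCh38 and so read 5' to 3' on the RNA, with the motif in capitals.
METTL3 motif in exon 1, chr14:21511167-21511187: aagcagctGGACTctctgcgg
METTL3 motif in exon 1, chr14:21511128-21511148: cggaagcaGGACTcggggcac
METTL3 motif in exon 3, chr14:21503372-21503392: ggtagcagGGACTgtcacagg
METTL3 motif in exon 3, chr14:21503338-21503358: gcagaacaGGACTcgactaca

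The motifs of METTL3 in exon 1 lie 54 and 15 nt from an exon junction and those in exon 3 lie 196 and 176 nt away. METTL14 (chromosome 4, 118685392 to 118715433, plus strand) has a much longer transcript of 6642 nt, most of it the 3' UTR of 5128 nt, and offered 148 DRACH motifs, including 8 GGACT and 113 that were more than 100 nt from a junction. None was listed. The GC content was 49.9% in the METTL3 transcript and 38.3% in that of METTL14.

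Of the regulatory subunits, WTAP, VIRMA, ZC3H13, CBLL1 and RBM15 had no site. WTAP (chromosome 6, 159725585 to 159756319, plus strand) has 76 DRACH motifs in a transcript of 3656 nt with 44.2% GC. In its gene body, 3 listed sites lay on the opposite strand and were not counted. ZC3H13 (chromosome 13, 45954465 to 46052759, minus strand) has the longest transcript of the members, 8024 nt with 41.6% GC, and the most DRACH motifs, 191, of which 132 were in the CDS. Its longest exon has 2833 nt, and 114 motifs were more than 100 nt from a junction. CBLL1 (chromosome 7, 107743073 to 107761667, plus strand) has the lowest GC content of the members, 37.9%, and 81 motifs.

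VIRMA (chromosome 8, 94487689 to 94553529, minus strand) has 162 DRACH motifs in 24 exons, 10 of them GGACT, in a transcript of 6478 nt with 40.4% GC. The separate methyltransferases were not listed either. METTL16 (chromosome 17, 2405562 to 2511891, minus strand) has 103 motifs, 69 of them in a 3' UTR of 3921 nt, and 47.6% GC. ZCCHC4 (chromosome 4, 25312774 to 25370383, plus strand) has 48 motifs and 42.4% GC. In total, the 9 genes without a site held 909 exonic DRACH motifs, 42 of them GGACT, 84 within 200 nt of the stop codon and 586 more than 100 nt from a junction.

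**Figure D3:**
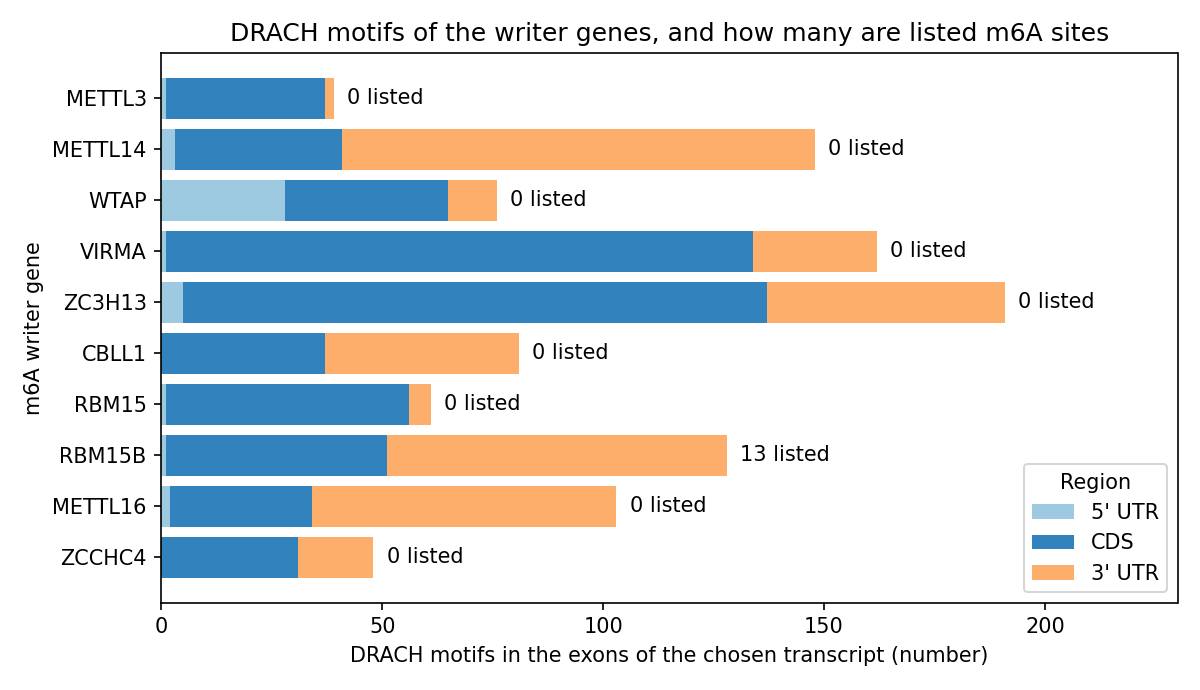
DRACH motifs in the exons of the chosen transcript of each writer gene (x axis, number; colours give the region), with the number that are listed m6A sites beside each bar. The motifs range from 39 in METTL3 to 191 in ZC3H13, and listed motifs are found in RBM15B only, with 13 of 128.

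The number of motifs did not order the members, as ZC3H13, VIRMA and METTL14 had more than RBM15B. By GC content, however, RBM15B was the highest of the 10 at 55.8%, followed by RBM15 at 54.2% and METTL3 at 49.9%. The median over the 10 genes was 43.3%. Over all coding genes with a chosen transcript, the median GC content was 57.1% in the 3991 with a site and 46.6% in the 15689 without. Listed genes made up 1.09% of those below 40% GC, where METTL14 and CBLL1 lie, and 4.27% between 40 and 45%, where WTAP, VIRMA, ZC3H13 and ZCCHC4 lie. The share was 12.4% between 45 and 50% (METTL3 and METTL16), 28.6% between 50 and 55% (RBM15) and 38.8% between 55 and 60% (RBM15B). It was 41.5% at 60% and above, where no writer gene lies.

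**Figure D4:**
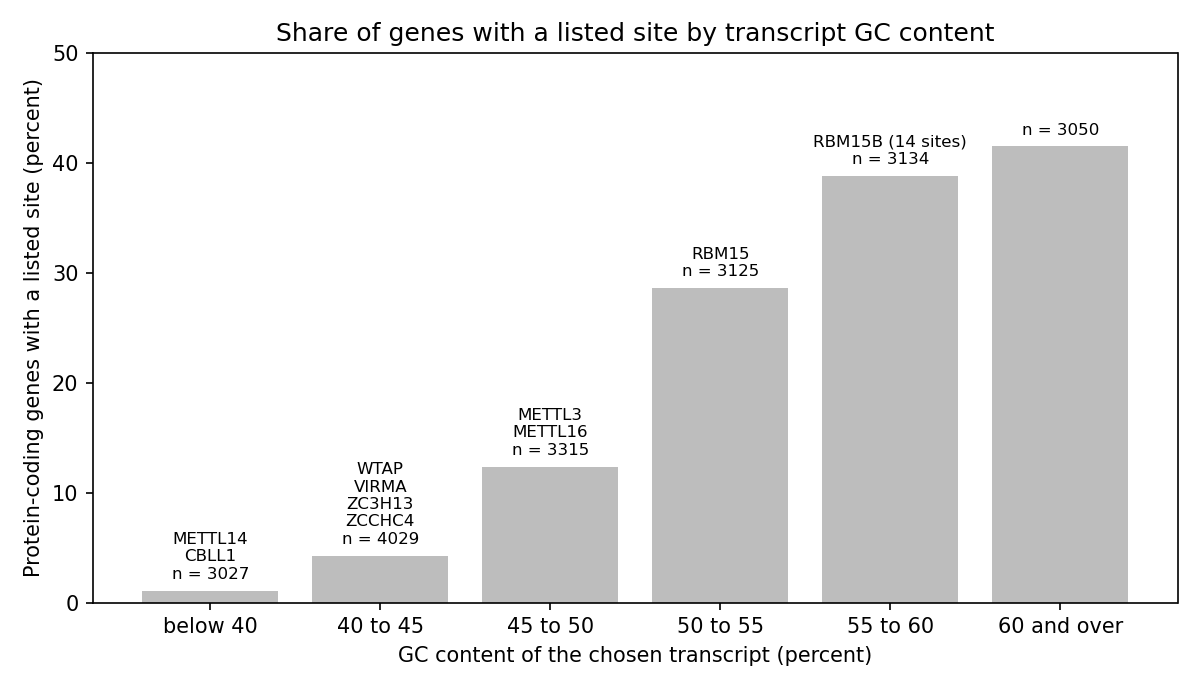
Protein-coding genes with at least 1 listed site (y axis, percent) by the GC content of the chosen transcript (x axis, percent), with the number of genes n and the writer genes of each class above the bars. The share rises from 1.09% below 40% to 41.5% at 60% and above, and 6 of the 9 writer genes without a site lie below 45%.

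The same order was seen in genes with many motifs. Among genes with at least 100 DRACH motifs, the listed share was 0.911% below 40% GC (1207 genes, METTL14 among them) and 3.95% between 40 and 45% (1239 genes, VIRMA and ZC3H13 among them). It was 11.8% between 45 and 50% (834 genes, with METTL16) and 43.2% between 55 and 60% (285 genes, with RBM15B). The part of GC content in the absence of 9 writer genes from the list was not tested.

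The paralogs RBM15 and RBM15B were the closest comparison. RBM15 (chromosome 1, 110338506 to 110346681, plus strand) keeps most of its CDS in 1 exon of 2892 nt, has 55 DRACH motifs in the CDS, 52 of them more than 100 nt from a junction, and was not listed. The translated reading frames, aligned from the genome sequence, had 862 residue pairs of which 49.0% were identical. The pairs covered 862 of the 890 residues of RBM15B, and all 14 sites fell on codons with a partner in RBM15. The residue was the same in both proteins at sites 2, 3, 4, 5, 8 and 10 and differed at the others. At 4 of the 14 the partner base in RBM15 was also the A of a DRACH motif, and at 2 of these, sites 3 and 10, the pentamer was the same. These 4 stretches of RBM15 are shown as the counterparts of sites 2, 3, 8 and 10 above, with the aligned pentamer in capitals (GRCh38, plus strand).
RBM15 aligned with RBM15B site 2, chr1:110340540-110340560: ggcaacctAGACAtcactgta
RBM15 aligned with RBM15B site 3, chr1:110340784-110340804: gaggcctgGGACCttgggttc
RBM15 aligned with RBM15B site 8, chr1:110341821-110341841: ttgcagggTGACCtccaagtg
RBM15 aligned with RBM15B site 10, chr1:110342064-110342084: ccacttagGAACCttgtgtcc

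At the other 10 sites the motif was not shared: the partner pentamer was GCACC at the position of site 4 and GGCCC at that of site 5, for instance. Over the whole CDS, 10 of the 50 DRACH motifs of RBM15B had a DRACH motif at the aligned base of RBM15. RBM15 has 6 GGACC motifs in its CDS, compared with 13 in RBM15B. The 3 sites nearest the stop codon of RBM15B had no DRACH motif at the aligned positions of RBM15. Those positions lie 49, 26 and 51 nt from an exon junction, the last of them in exon 2. RBM15 had a CDS of 56.6% GC and a 3' UTR of 410 nt in the chosen transcript. Since mRNA levels were not analysed here, 14 against 0 sites cannot be told apart from a difference in the abundance of the paralogs.

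Other genes of the m6A pathway were examined by lists. Of the 11 reader genes (YTHDF1, YTHDF2, YTHDF3, YTHDC1, YTHDC2, IGF2BP1, IGF2BP2, IGF2BP3, HNRNPA2B1, HNRNPC and RBMX), 0 were listed, with 1015 DRACH motifs and a median GC content of 40.7%. Of the 2 erasers, the demethylase ALKBH5 held 2 sites, both in the CDS, and FTO had none. The ALKBH5 site at position 18208341 of chromosome 17 (GGACT, score 0.850) lay 53 nt before the stop codon, close to the distance of site 12 in RBM15B.

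Among 6 genes for other RNA adenosine methyltransferases and their partners, TRMT61A, the catalytic subunit of a tRNA m1A methyltransferase, held 6 sites, all in the 3' UTR, with scores from 0.541 to 0.888. PCIF1, which methylates the adenosine next to the mRNA cap, held 2 sites, of which that at position 45947798 of chromosome 20 (GGACT, score 0.935) lay in the 3' UTR, 45 nt from the start of the stop codon. The other site of PCIF1 was in the gene body but outside the chosen transcript. METTL5, TRMT112, METTL4 and TRMT6 had none. Of 3 genes for the supply and turnover of the methyl donor S-adenosylmethionine, AHCY held 5 sites, 4 of them in the 3' UTR with scores up to 0.960, while MAT2A and MAT2B had none.

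In all, 4 of these 22 genes were listed (18.2%), close to the 20.2% of all coding genes. Their transcripts had GC contents between 56.2% and 64.7%, and the 18 without a site ranged from 36.4% to 54.3%. These ranges did not meet in the 22 chosen genes, but they overlap over all coding genes: the lower quartile of listed genes was 52.4% and the upper quartile of unlisted genes 54.4%. In the writer genes the order was the same, with RBM15B at 55.8% and the other 9 between 37.9% and 54.2%. Among these 22 genes and the writer genes, RBM15B held the most sites, and its sites, like those of ALKBH5, were confined to the CDS, whereas all sites of TRMT61A were in the 3' UTR.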

How the data were processed

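miCLIP2 libraries of poly(A)+ RNA from C643 cells were processed by the authors: alignment to GRCh38.p12 with STAR 2.7.3a, removal of duplicates with UMI-tools 1.0.0, separation of reads with C-to-T transitions, PureCLIP peaks per replicate kept when found in more than one replicate, and classification of peaks at A with m6Aboost, which was trained on Mettl3-dependent sites of mouse cells. The deposited list holds the prediction score of each site called modified, pooled over replicates. It gives no read counts, so depth per site is unknown and intervals cover the sampling of sites or motifs only, and sites of 1 gene are not independent.

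Sites were placed on GENCODE release 44 (same assembly, later release than the authors'). Each gene was described on its longest spliced transcript among those with transcript support level at most 3, or none given, and support level at most 2. In counts of genes, a site in overlapping genes on the same strand counted for each. GC content is that of the spliced transcript. Reading frames of RBM15 and RBM15B were translated and aligned globally (BLOSUM62, gap penalties 11 and 1), since no protein table was at hand. Members and lists were chosen with earlier results of these data known, and no test was made. The rule for named genes took all members with every site and, from each list of other genes, those with sites. Alternatives changed the score threshold, transcript, motif, windows and members. Motif and region assignment was tested on simulated data (6 of 6 planted motifs recovered), and 32 of 32 transcript sequences equalled those of GENCODE. Python 3.11.15, pysam 0.24.0, pandas 2.3.3, scipy 1.17.1, biopython 1.88 and matplotlib 3.10.9 were used.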

Additional observations from a re-analysis of the deposited data

How the results depend on the processing

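Of 25 alternatives to 9 values, 18 stayed within the interval of the reported value, or within 1.5 times a count, and 7 moved. Some of the 18 could not have moved, since all sites lie in the CDS of RBM15B, and keeping only complex subunits keeps that gene. A score of at least 0.7 left 6 sites in writer genes and 0.579% of their DRACH motifs listed instead of 1.25%. It left 17.5% of coding genes with a site, and these values fall by construction. The DRACH share became 100%, since site 11 at AGACG, the only site outside the motif, scored 0.561. RBM15B was still the only writer gene with a site, and a higher threshold cannot add a gene. Without RBM15B there were 0 sites and 0% of motifs listed, and the shares of sites had no value. Counting RAC in place of DRACH put 100% of the sites at the motif, as AGACG fits it. The CDS share stayed at 100% and the 3' UTR share at 0% with canonical transcripts and with a score of at least 0.7. For the score this was fixed in advance, as any subset of these sites lies in the CDS. Distance from junctions gave no value, as the only gene with sites has 1 exon. No replicate could be left out of a pooled list. No paired analysis was possible because all libraries belong to 1 group. Absence from the list is limited by unknown expression and depth.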

Other observations

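METTL16 is known to methylate the MAT2A mRNA at hairpins of the 3' UTR, at an A in the letters ACAGA, which are not DRACH. MAT2A (chromosome 2, 85539168 to 85545281, plus strand) had 0 listed sites, and in the whole list 0 of 18789 sites were centred on ACAGA. The classifier was trained on METTL3-dependent sites, and whether peaks were called at these adenosines was not analysed here.

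Single-exon coding genes, the class to which RBM15B belongs, numbered 1160. Most of them held no listed exonic site. Those with such a site held 720 sites with a median of 7 per gene, and 8 of these listed genes had more sites than RBM15B. The CDS held 51.2% of the 720 sites and the 3' UTR 43.6%. With 14 of 14 sites in the CDS (Wilson interval from 78.5%), RBM15B lay above the share pooled over the sites of that class. Sites of the same gene are not independent, so the interval is not a test, and the difference was not tested.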
